A study of Mus musculus with 6 samples.

Results

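The regions described here are peaks of open chromatin that lie far from every protein-coding gene. A peak of the deposited consensus set was kept when it lay on chromosomes 1 to 19, its centre was outside all protein-coding genes of the mouse gene table (RefSeq, assembly GRCm38.p6), and the nearest end of such a gene was more than 50 kb away. This held for 9907 of 90823 peaks (10.9%), called far peaks from here on. The rule uses positions alone. The far peaks ran from just past the limit (50.0 kb) to 2137 kb from a gene end. The 111 peaks at 50 to 51 kb, just inside the limit, had a median of 4.05 CPM (read counts scaled to library size), and the 117 peaks at 49 to 50 kb, just outside it, had 3.72 CPM.

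The assay was ATAC-seq, which reads out accessible DNA through the cuts of a transposase, in epithelial cells sorted from mouse intestinal organoids. Organoids are three-dimensional cultures, here grown from crypts in Matrigel, that keep the stem cells and many of the differentiated cells of the gut lining. Organoids of 3 groups, with 2 libraries each, were given vehicle, 25 µM arachidonic acid (AA) or 50 nM prostaglandin E2 (PGE2) for 3 days. AA is a membrane fatty acid and the precursor of the prostaglandins, PGE2 among them. The series' design text names a dimethyl analogue of PGE2 where the treatment label has PGE2, so the compound is called PGE2 as labelled. All groups, vehicle included, shared a medium with EGF, Noggin, R-spondin and the Wnt pathway activator CHIR-99021, so every comparison was made against a background of strong Wnt activation. Strain, sex and age of the mice were not given in the sources used here. The labels do not say whether the 2 libraries of a group came from separate cultures, so p-values measure the spread between these libraries, which may be technical.

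Open regions far from genes are mostly distal enhancers, stretches of DNA that bind transcription factors and act on promoters over long distances through looping of the chromatin. They tend to be more specific to a cell type or state than promoters are, and many lie in gene deserts around developmental and signalling genes. In the gut epithelium, distal elements bound by factors such as CDX, HNF4, GATA and KLF proteins carry intestinal identity, and elements bound by AP-1, the dimers of Jun and Fos proteins, open during injury and repair. Such an element can skip the gene closest to it, so flanking genes give a peak's address here and nothing more.

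A subset of the far peaks carries its own sequence record, because 146 of them hold the whole promoter window (250 bases before to 50 after the start) of 148 long non-coding RNA (lncRNA) genes. The 8 windows below are given as RefSeq (GRCm38.p6) lists them, 5′ to 3′ on the strand of the gene, in lower case with capitals for matches to the letters searched. Wincr1 (chr4:89050057-89050356, plus strand) and Gm41331 (chr15:60141661-60141960, plus strand) lie in the peaks of this kind with the largest gains under AA (among those of average log2 CPM of at least 1), and Gm40228 (chr4:114346574-114346873, minus strand) and Gm36443 (chr3:130803901-130804200, minus strand) in those with the largest losses. Dleu2 (chr14:61682324-61682623, minus strand) lies in a peak that rose with PGE2 and was not called with AA. Gm30438 (chr14:67158913-67159212, plus strand), Gm33323 (chr7:129764377-129764676, plus strand) and Gm39608 (chr11:20898695-20898994, minus strand) hold the AP-1 letters in peaks that rose with AA. Capitals mark the letters of the GATA, RUNX, CDX, TCF, HNF4 and AP-1 motifs, which are spelled out with the counts further on, on either strand.
Wincr1: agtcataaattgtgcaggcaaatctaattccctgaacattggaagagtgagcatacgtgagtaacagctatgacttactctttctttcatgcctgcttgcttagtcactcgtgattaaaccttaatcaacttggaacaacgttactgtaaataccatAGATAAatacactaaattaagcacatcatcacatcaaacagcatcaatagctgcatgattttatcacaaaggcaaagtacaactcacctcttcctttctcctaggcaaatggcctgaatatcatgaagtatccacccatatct
Gm41331: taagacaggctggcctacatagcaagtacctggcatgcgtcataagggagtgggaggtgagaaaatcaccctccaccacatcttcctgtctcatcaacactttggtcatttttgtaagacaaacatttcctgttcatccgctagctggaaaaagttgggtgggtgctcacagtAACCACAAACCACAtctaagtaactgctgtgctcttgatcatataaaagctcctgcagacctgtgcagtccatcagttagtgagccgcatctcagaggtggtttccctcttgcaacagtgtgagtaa
Gm40228: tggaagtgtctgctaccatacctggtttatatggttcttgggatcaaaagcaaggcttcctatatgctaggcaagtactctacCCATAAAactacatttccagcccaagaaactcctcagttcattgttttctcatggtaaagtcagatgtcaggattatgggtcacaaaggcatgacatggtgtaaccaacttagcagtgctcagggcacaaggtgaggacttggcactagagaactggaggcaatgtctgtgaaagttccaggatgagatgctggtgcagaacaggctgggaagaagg
Gm36443: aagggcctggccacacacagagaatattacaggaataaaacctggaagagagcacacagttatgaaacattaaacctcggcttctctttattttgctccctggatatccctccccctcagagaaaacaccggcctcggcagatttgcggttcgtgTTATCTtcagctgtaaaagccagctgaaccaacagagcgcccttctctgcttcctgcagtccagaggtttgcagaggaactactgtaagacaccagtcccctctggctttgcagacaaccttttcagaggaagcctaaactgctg
Dleu2: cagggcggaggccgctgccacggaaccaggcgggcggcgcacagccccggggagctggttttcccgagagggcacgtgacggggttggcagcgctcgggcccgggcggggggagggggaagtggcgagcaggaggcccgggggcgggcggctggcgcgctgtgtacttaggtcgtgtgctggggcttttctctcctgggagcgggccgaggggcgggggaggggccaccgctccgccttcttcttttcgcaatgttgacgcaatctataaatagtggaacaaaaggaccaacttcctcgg
Gm30438: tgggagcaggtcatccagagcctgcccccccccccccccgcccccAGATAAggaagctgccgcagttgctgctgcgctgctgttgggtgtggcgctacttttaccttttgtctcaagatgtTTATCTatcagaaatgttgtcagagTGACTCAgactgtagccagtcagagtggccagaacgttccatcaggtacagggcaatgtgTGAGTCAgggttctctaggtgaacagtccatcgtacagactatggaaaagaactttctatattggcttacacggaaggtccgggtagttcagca
Gm33323: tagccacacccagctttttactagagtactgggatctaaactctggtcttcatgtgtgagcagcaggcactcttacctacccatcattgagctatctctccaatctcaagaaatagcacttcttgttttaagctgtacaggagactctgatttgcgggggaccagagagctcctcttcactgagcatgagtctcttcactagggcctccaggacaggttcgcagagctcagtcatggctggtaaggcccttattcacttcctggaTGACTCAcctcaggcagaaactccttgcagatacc
Gm39608: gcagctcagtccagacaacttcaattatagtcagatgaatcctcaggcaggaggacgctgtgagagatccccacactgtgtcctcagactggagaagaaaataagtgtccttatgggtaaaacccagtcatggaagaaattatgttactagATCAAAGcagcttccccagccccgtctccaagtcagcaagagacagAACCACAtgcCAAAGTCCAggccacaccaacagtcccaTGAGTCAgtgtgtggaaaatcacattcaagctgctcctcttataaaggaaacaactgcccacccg

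One far peak holds a whole microRNA gene, Mir802, which is known from liver, pancreas and gut epithelium (chr16:93369720-93369816, plus strand). Its hairpin and its mature arms, from RefSeq, are shown with the seed (bases 2 to 8), the stretch that pairs with target messages, in capitals.
Mir802 hairpin: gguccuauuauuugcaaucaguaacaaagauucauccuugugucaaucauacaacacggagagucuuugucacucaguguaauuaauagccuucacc
mmu-miR-802-5p: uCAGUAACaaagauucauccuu
mmu-miR-802-3p: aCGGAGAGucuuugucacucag

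The far peaks were small and weak next to those at genes. Their median width was 497 bp (175 to 2703) and their median level 3.47 CPM. Peaks within 1 kb of a coding gene end, 14240 in number, had medians of 980 bp and 17.2 CPM. Peaks inside genes (39919) and those between genes within 50 kb of an end (24899) were closer to the far peaks, with medians of 3.99 and 4.12 CPM. Of the far peaks 4337 (43.8%) lay 50 to 100 kb from a gene end, 3091 at 100 to 200 kb, 2017 at 200 to 500 kb and 462 beyond 500 kb, of which 98 lay beyond 1000 kb. They were unevenly spread, from 5.45% of the peaks of chromosome 19 and 5.78% of those of chromosome 7 to 19.3% of those of chromosome 13.

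Far peaks also stood together. They fell into 1546 gaps, a gap being the stretch between neighbouring coding genes, and 301 gaps with at least 10 far peaks held 59.8% of them. Chromosome 18 was left out when gaps and peaks were picked to be named, so such rankings here and below are over the other chromosomes. The gap between Nmbr and Cited2 held the most (60). It was followed by those between the transcription factor genes Klf5 and Klf12 (57), Tbc1d1 and Gm38457 (56), Zeb2 and Acvr2a (52), and Lcorl and Slit2 (50). Not all far peaks were remote from every gene, because 2336 (23.6%) lay inside a lncRNA gene. Only 2050 (20.7%) were more than 50 kb from genes of every type in the table.

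The 6 libraries held 12374232 to 14236985 counts in peaks, of which 966576 to 1104124 were in far peaks, with a median far peak at 43 to 49 counts. The libraries of a group differed a little beyond counting noise over the far peaks (chi-square over its degrees of freedom at least 1.08), so none was treated as a copy of another. All 10 epithelial marker genes had a gene-end peak, with summed levels of 760 to 797 CPM. The defining genes of other cell types mostly had none: Pecam1 and Cdh5 of endothelium, Ptprc and Cd3e of immune cells and Col1a1, Pdgfra and Acta2 of stroma. Of the lists, 2 of 11 stromal genes (18.6 to 22.9 CPM), 2 of 10 immune genes, 1 of 7 endothelial genes (2.82 to 3.73 CPM) and 5 of 6 neural genes (21.5 to 28.2 CPM) had one. The summed immune level was 34.4 and 36.2 CPM with vehicle, 45.8 and 40.1 under AA and 39.8 and 43.7 under PGE2, and its part in the results was not tested.

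The first question was how much of the open chromatin signal fell into far peaks under each treatment. Far peaks held 8.11% and 8.19% of the counts with vehicle, 7.76% and 7.81% under AA and 7.49% and 7.36% under PGE2. Vehicle was highest and PGE2 lowest, with no overlap between groups. The difference was -0.37 percentage points for AA and -0.73 for PGE2, each larger than the spread within groups (SD 0.058, 0.04 and 0.095 for vehicle, AA and PGE2, n = 2). An exact permutation test gave p = 0.333, two-sided, for each pair of groups, the smallest that 2 libraries against 2 allow. Beyond 500 kb the share was 0.298% and 0.306% with vehicle, 0.256% and 0.266% under AA and 0.242% and 0.245% under PGE2, again without overlap. Over the same libraries the share at coding gene ends was 31.3% and 30.9%, 31.8% and 32.3%, and 33.7% and 35.2%. Group means for vehicle, AA and PGE2 were 36.4%, 36.1% and 35.1% inside genes. Between genes within 50 kb they were 22.9%, 22.7% and 21.6%, where the AA libraries overlapped vehicle. A lower share was therefore not particular to far peaks. A share can fall because far peaks lose signal or because other peaks gain it, and these cannot be told apart from shares alone.

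**Figure D1:**
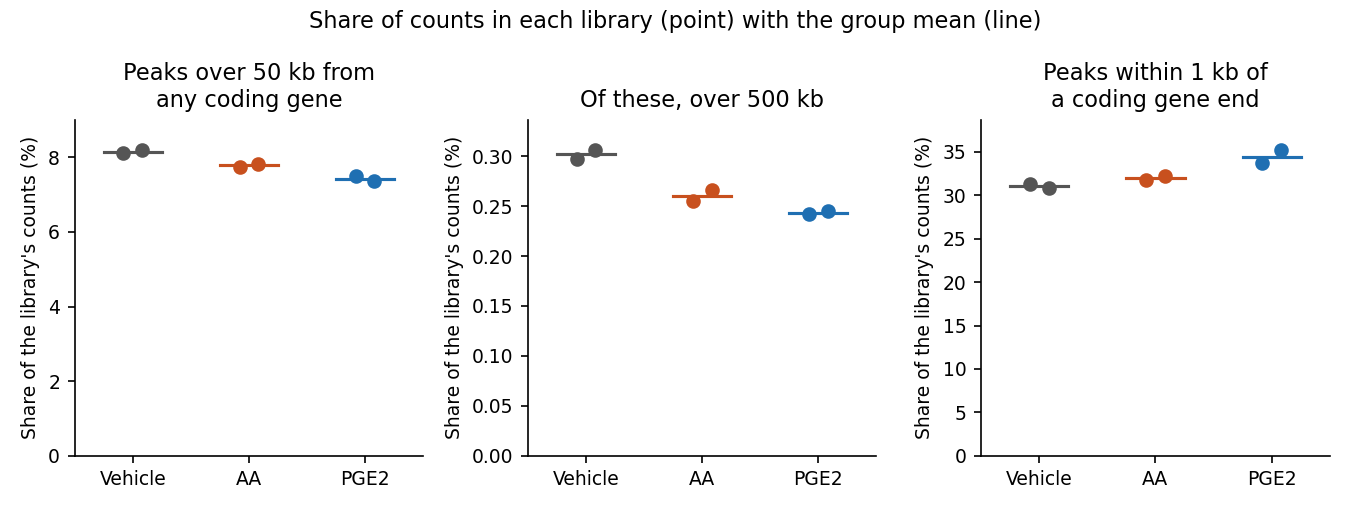
Share of each library's peak counts (%, y axis) in far peaks, in those beyond 500 kb and in peaks within 1 kb of a coding gene end, for vehicle, AA and PGE2 (x axis). Points are libraries and lines group means. The share in far peaks falls from 8.11% and 8.19% with vehicle to 7.49% and 7.36% with PGE2, while that at gene ends is highest with PGE2.

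The comparison of AA with vehicle asked which far peaks opened or closed. With AA 1794 of the 9755 tested far peaks were called higher (18.4%) and 2089 lower (21.4%), against 16.7% higher and 13.8% lower among all 89347 tested peaks (edgeR quasi-likelihood, Benjamini-Hochberg adjusted p under 0.05). The other 152 far peaks had too few counts to test. Called far peaks had median log2 changes of 0.92 and -0.75, and the median over all tested far peaks was -0.09 against -0.02 over all peaks. Changes of at least 2-fold were called at 820 far peaks higher (8.41%) and 623 lower (6.39%), against 5.37% and 2.68% of all peaks. In bulk libraries, fewer cells of a type and less open chromatin per cell cannot be told apart. Without AA replicate 1 the count of lower far peaks was 1376. With scaling factors computed from far peaks alone the larger side turned, to 2141 higher (21.9%) and 1695 lower (17.4%). Of all tested peaks 22.1% and 10.1% were then higher and lower. DESeq2 called 856 higher (9.02%) and 657 lower (6.93%) of the 9487 far peaks with an adjusted p, against 6.92% and 3.38% of all peaks. Losses thus stayed more frequent among far peaks than among all peaks in both.

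Loss under AA was more frequent the farther a peak lay from genes, while gain of any size was not. Called lower were 18% of the far peaks at 50 to 100 kb, 22.5% at 100 to 200 kb, 24.7% at 200 to 500 kb and 32.1% beyond 500 kb. Called higher were 18.8%, 17.7%, 18.9% and 16.7% of them. Gains of at least 2-fold did become more frequent, at 7.73%, 8.57%, 9.29% and 9.80%. Losses of that size were at 4.12%, 6.27%, 9.49% and 14.9%. At coding gene ends 14.9% of 14077 tested peaks were higher and 7.57% lower. The percentage lower rose at each step of distance in all 6 fits that left out a library (50 to 100 kb 11.7% to 19.3%, beyond 500 kb 19.8% to 32.4%) and under all 3 other scalings (14.1% to 20.3% and 29.0% to 33.9%).

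Far peaks were weaker than other peaks, so they were also compared within 5 equal bins of level over all tested peaks. In each of the 5 bins a larger percentage of far peaks than of other autosomal peaks was lower with AA, for instance 25.8% against 15.9% in the middle bin and 24.4% against 11.7% in the highest. Within each bin the peaks beyond 500 kb were also more often lower than those at 50 to 100 kb. In the highest bin this was 16 of 36 peaks (44.4%) against 116 of 580 (20.0%), and 0 of those 36 peaks were higher. In bins 2, 3 and 4, counted from the weakest, 19.3%, 22.2% and 28.4% of the peaks beyond 500 kb were higher. At 50 to 100 kb 18.1%, 19.7% and 24.4% were. In the weakest bin it was 10.6% against 12.5%.

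With PGE2 far peaks were again lower more often than higher. Called higher were 1097 (11.2%) and called lower 1662 (17%), against 14.3% higher and 10.6% lower among all tested peaks. The median log2 changes of called far peaks were 0.83 and -0.66. Changes of at least 2-fold were called at 399 far peaks higher (4.09%) and 402 lower (4.12%), against 2.79% and 1.49% of all peaks. Over the same contrast 32.5% of the peaks at coding gene ends were higher and 5.27% lower. Inside genes 11.16% were higher and 10.74% lower, and between genes within 50 kb 10.52% and 10.75%. Fewer gains than among all tested peaks were therefore not particular to far peaks, whereas losses were more frequent than in each of these classes. Without Vehicle replicate 1 the count higher was 637, and without Vehicle replicate 2 the count lower was 1049. With scaling factors from far peaks alone the split was 1381 higher and 1306 lower, against 1097 and 1662. The 1381 and 1306 were 14.2% and 13.4% of tested far peaks, against 18.3% and 7.30% of all tested peaks. That scaling centres the changes of the far peaks near 0.

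Distance went with loss under PGE2 as well. Called lower were 14%, 17.2%, 20.0% and 31.4% at 50 to 100, 100 to 200, 200 to 500 and over 500 kb, and called higher 11.3%, 11.5%, 11.5% and 8.46%. The percentage lower again rose at each step in all 6 fits without a library and under the 3 other scalings, at 27.8% to 34.7% beyond 500 kb in the latter. Far peaks exceeded other autosomal peaks, gene ends included, in the percentage lower in each of the 5 level bins, with 27.3% against 12.7% in the highest. There 24 of the 36 peaks beyond 500 kb (66.7%) were lower and 1 was higher. The vehicle libraries are shared by both comparisons, so the gradients are not independent of each other.

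**Figure D2:**
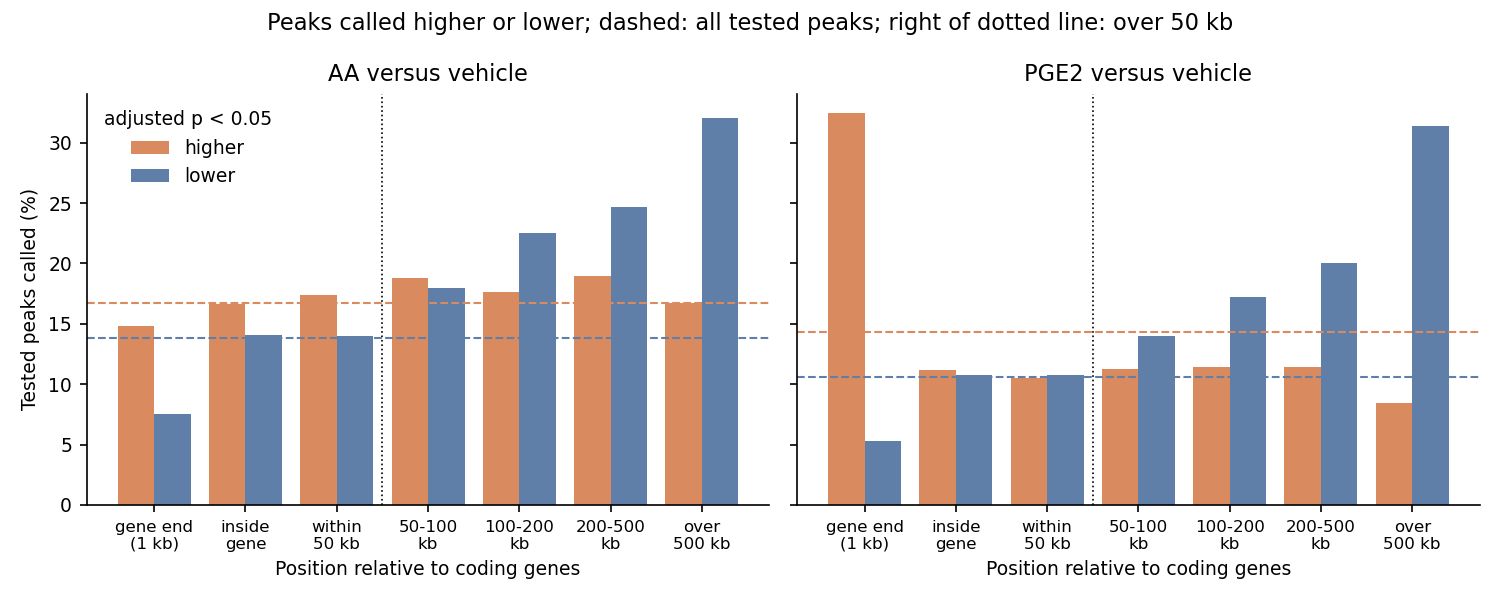
Percentage of tested peaks called higher or lower (y axis, edgeR adjusted p under 0.05) by position relative to coding genes (x axis), for AA and PGE2 against vehicle. Dashed lines give all tested peaks and far peaks stand right of the dotted line. The percentage lower climbs from 18% to 32.1% with AA and from 14% to 31.4% with PGE2 as distance grows.

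Compared directly, AA left far peaks more open than PGE2 did at more places than the reverse. Between AA and PGE2 627 far peaks (6.43%) were higher with AA and 229 (2.35%) lower, against 5.06% and 4.88% of all tested peaks (9.95% in either direction). Differences of at least 2-fold were called at 61 and 34 of them (0.625% and 0.349%, against 0.375% and 0.34% of all peaks). Far peaks called in this contrast were fewer when a library was left out: without AA replicate 1 295 were higher and 65 lower, without AA replicate 2 231 and 92, and without PGE2 replicate 2 144 were lower. At coding gene ends the balance was the reverse, with 1.53% higher and 17% lower in AA. Peaks inside genes (5.53% higher and 3.09% lower) and between genes within 50 kb (5.88% and 1.97%) leaned as far peaks did. The lean toward AA was therefore not particular to far peaks.

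Outside chromosome 18, the far peak with the smallest p for a gain under AA lay between Gm5148 and Ankrd50, 172 kb from a gene end (chromosome 3, 38276660 to 38277570). It had 2.76 and 2.98 CPM with vehicle, 16.7 and 17 under AA and 11.8 and 13.0 under PGE2. The groups did not overlap, and AA stood highest. Its log2 change was 2.55 (SE 0.15) with AA and 2.11 (SE 0.16) with PGE2 (adjusted p = 7.85e-17 and 4.02e-13, edgeR).

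Next in order was a peak between Atp6v1g3, a proton pump subunit gene, and Nek7, which encodes a kinase needed by the NLRP3 inflammasome (chromosome 1, 138348256 to 138349458). It went from 6.97 and 8.16 CPM with vehicle to 25.1 and 27.6 under AA and 21.6 and 23.1 under PGE2, log2 changes of 1.79 (SE 0.11) and 1.56 (SE 0.12). The difference between the treatments was not called (log2 0.23, SE 0.094, adjusted p = 0.114, edgeR). The next was a peak in the lncRNA gene Gm31195, between Xkr9 and the transcriptional co-activator gene Eya1 (chromosome 1, 13873844 to 13874450), with 4.14 and 4.88, 17.9 and 19.3, and 12.7 and 10.6 CPM in the same order. Here AA was above PGE2 by a log2 difference of 0.67 (SE 0.11, adjusted p = 1.03e-04, edgeR).

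The largest gains by fold began from nearly closed chromatin, so their folds rest on few vehicle counts. A peak between Meis1, a homeobox gene, and Spred2, which encodes an inhibitor of Ras signalling (chromosome 11, 19843097 to 19843381), held 7 and 3 counts with vehicle, 52 and 38 under AA and 18 and 28 under PGE2. All treated libraries exceeded both vehicle libraries, and the log2 change was 3.12 (SE 0.39) with AA and 2.18 (SE 0.45) with PGE2. A peak between Tprg and Trp63, the gene of the stratified epithelium factor p63 (chromosome 16, 25545003 to 25545255), went from 7 and 4 counts to 53 and 38 under AA and 40 and 26 under PGE2. Its log2 changes were 3.00 (SE 0.37) and 2.56 (SE 0.4). Between Klf4, which encodes a transcription factor of differentiating epithelium, and Actl7b (chromosome 4, 56393695 to 56394367) a peak had the largest gain with PGE2, at 5 and 8 counts with vehicle and 32 and 51 with PGE2 (log2 2.66, SE 0.37). With AA it held 37 and 33 counts (log2 2.39, SE 0.39).

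Other peaks of this kind lay between the interferon gene Ifne and Mtap (chromosome 4, 89044094 to 89044433, log2 2.86 with AA), Tex29 and A230072I06Rik (chromosome 8, 12052539 to 12053210, log2 2.77) and Fam98a and Crim1 (chromosome 17, 75936737 to 75937302, log2 2.65). All 3 also rose with PGE2, by log2 1.98, 2.46 and 2.13. A better covered gain under both treatments lay 225 kb from Arid1b, which encodes a chromatin remodelling subunit (chromosome 17, 4769014 to 4769875). It had 9.80 and 8.62 CPM with vehicle, 26.0 and 26.4 under AA and 24.8 and 23.5 under PGE2.

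The far peak most distant from any coding gene, 2137 kb from Cntnap5b in the gap that ends at the cadherin gene Cdh20 (chromosome 1, 102626981 to 102627468), had 6.28 and 5.04 CPM with vehicle, 0.774 and 1.14 under AA and 1.14 and 1.23 under PGE2. It had the largest fall of the named peaks with AA, a log2 change of -2.57 (SE 0.27), and fell with PGE2 by 2.24 on the log2 scale. The next 2 most distant peaks lay in the same gap and fell too. The one at 102623718 to 102624055 had 4.52 and 4.20 CPM with vehicle, 0.985 and 0.571 under AA and 0.992 and 0.926 under PGE2. The one at 102561341 to 102561643 held 38 and 28 counts with vehicle and 4 to 16 in the treated libraries, and its call with PGE2 (log2 -1.08, SE 0.35, adjusted p = 0.0207, edgeR) was lost without Vehicle replicate 1 or PGE2 replicate 1.

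Between the cadherin gene Cdh26 and 4930591A17Rik a peak fell from 22.1 and 23.7 CPM with vehicle to 7.81 and 6.69 under AA and 6.56 and 7.10 under PGE2 (chromosome 2, 179170105 to 179171037). Treated libraries lay at about the same level, all far under vehicle. The log2 changes were -1.65 (SE 0.12) and -1.75 (SE 0.12). They had the smallest p of the losses outside chromosome 18 in both comparisons (adjusted p = 1.12e-14 and 3.89e-14, edgeR). A second peak of that gap (chromosome 2, 178888467 to 178889185) had 12.3 and 9.99 CPM with vehicle, 1.90 and 2.37 under AA and 3.36 and 3.24 under PGE2.

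Between Auts2, a neurodevelopmental gene, and Castor2 (chromosome 5, 133868858 to 133869256) a peak went from 3.98 and 4.35 CPM to 0.915 and 0.653 under AA and 0.687 and 0.926 under PGE2. Its log2 changes were -2.38 (SE 0.3) and -2.36 (SE 0.3), with AA and PGE2 nearly level (log2 difference -0.02, SE 0.44). Further falls under both treatments were at chromosome 4, 142772847 to 142774066, between Kazn and Prdm2 (13.9 and 14.1, then 4.43 and 4.16, then 3.20 and 4.24 CPM), and inside the lncRNA gene D830032E09Rik between Serpinb8 and Cdh7 (chromosome 1, 107941805 to 107942359, log2 -2.30 and -1.54). Others were inside the lncRNA gene 1700008C04Rik (chromosome 12, 51044826 to 51045740, log2 -1.69 and -2.07) and between Foxl1 and 1700018B08Rik (chromosome 8, 121377481 to 121378069, log2 -1.59 and -1.92).

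**Figure D3:**
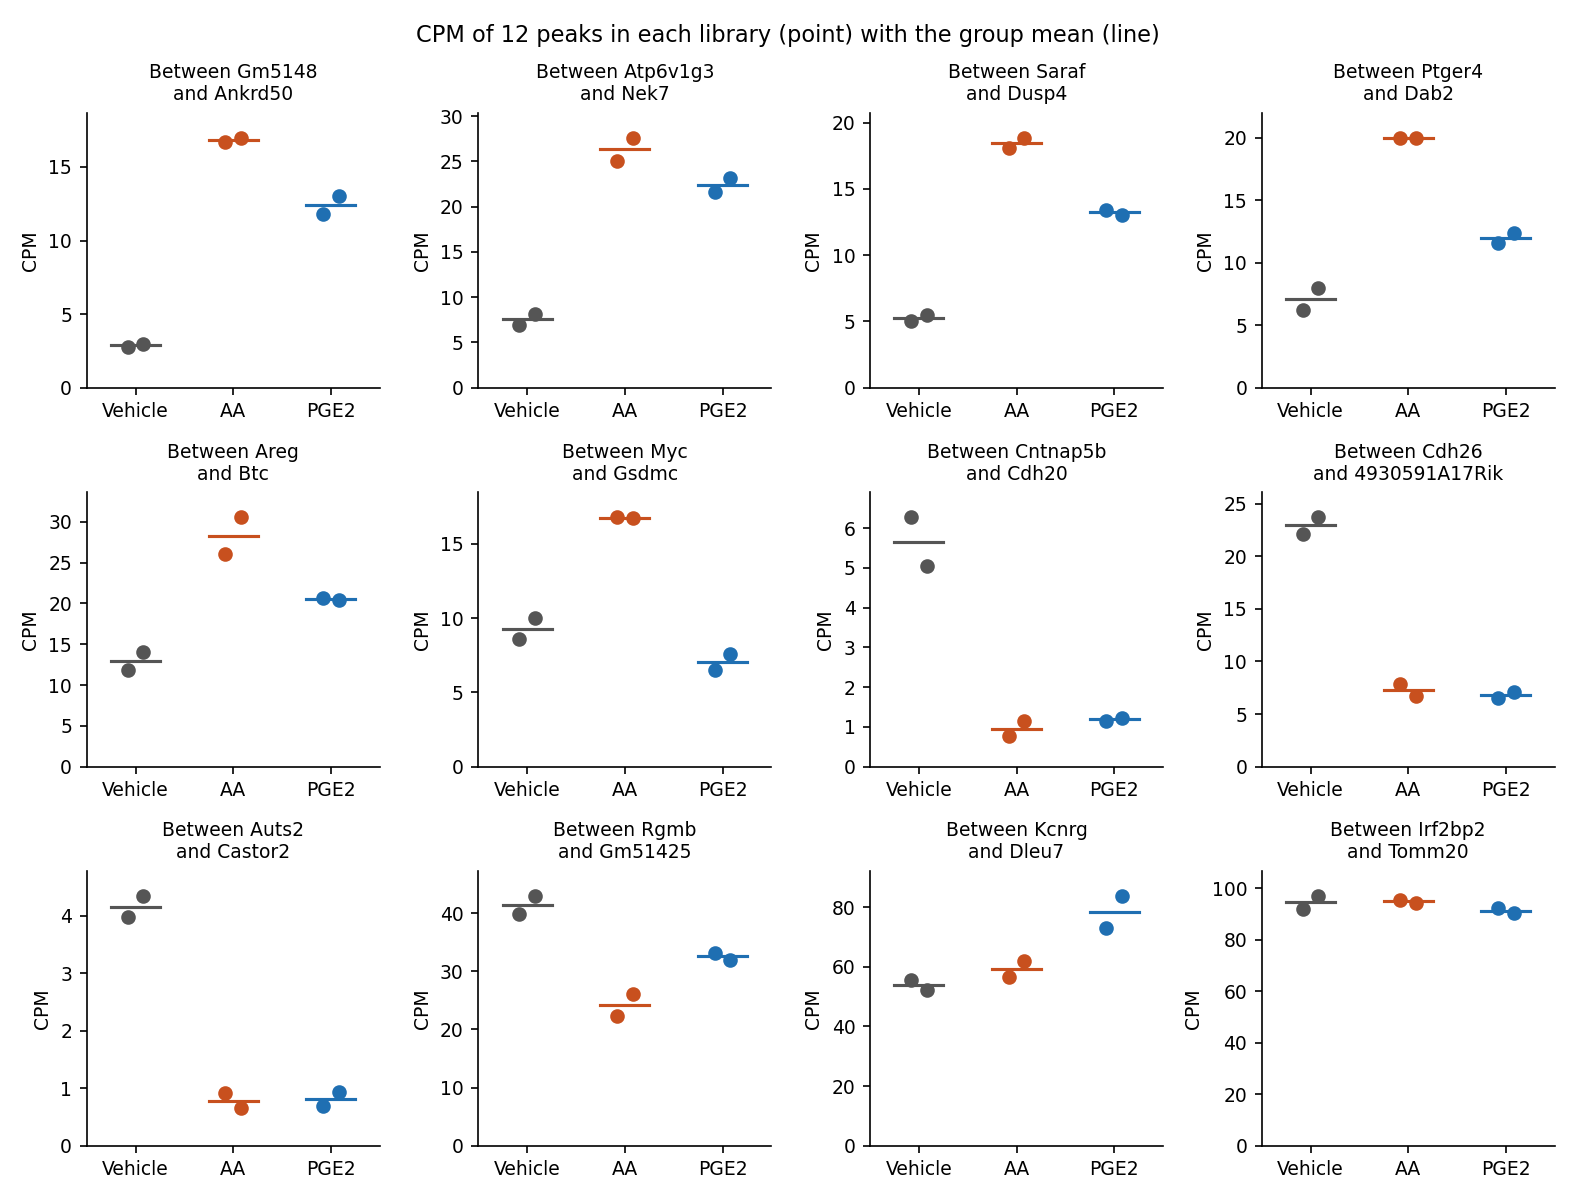
CPM (y axis, from 0) of 12 far peaks in each vehicle, AA and PGE2 library, titled by the coding genes that bound their gap. Points are libraries and lines are group means. The peak between Gm5148 and Ankrd50 stands at 2.76 and 2.98 CPM with vehicle and at 16.7 and 17 with AA, the one between Myc and Gsdmc is high with AA alone, and the one between Irf2bp2 and Tomm20 is level.

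Called in opposite directions by the treatments were 2 far peaks. The first lay 338 kb from Myc, a proto-oncogene and Wnt target, in the gap that ends at Gsdmc (chromosome 15, 62328374 to 62329143). It had 8.58 and 9.99 CPM with vehicle, 16.8 and 16.7 under AA and 6.49 and 7.56 under PGE2, so vehicle stood between the treatments. The log2 change was 0.85 (SE 0.12) with AA and -0.40 (SE 0.14, adjusted p = 0.0306, edgeR) with PGE2, and AA exceeded PGE2 by 1.26 (SE 0.13, adjusted p = 1.63e-08, edgeR). The second lay 544 kb from Atp2b1, a calcium pump gene (chromosome 10, 98370446 to 98371274), at 5.67 and 7.48, 8.87 and 9.14, and 4.88 and 4.32 CPM in the same order. AA exceeded PGE2 there by 0.96 (SE 0.16, adjusted p = 7.73e-05, edgeR). At both, the PGE2 call against vehicle was lost with DESeq2 and without Vehicle replicate 2, and at the second the AA call was lost with DESeq2 and without AA replicate 1, AA replicate 2 or Vehicle replicate 1. The difference between AA and PGE2 was kept in every alternative that gave a value at both peaks; DESeq2 gave no adjusted p for it at the second.

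Among far peaks of average log2 CPM of at least 1 without overlap of the AA and PGE2 libraries, 1 per gap, the 3 largest differences in favour of AA were at peaks called higher with AA and not called with PGE2. A peak between Itga1 and Isl1, the gene of an endocrine homeobox factor (chromosome 13, 115572069 to 115572664), had 1.76 and 2.67 CPM with vehicle, 6.83 and 5.63 under AA and 1.98 and 2.78 under PGE2. AA was 1.39 (SE 0.21) above PGE2 on the log2 scale, and PGE2 overlapped vehicle (log2 0.10, SE 0.27). A peak between Egln3, an oxygen sensor gene, and Sptssa (chromosome 12, 54533805 to 54534105) had 1.45 and 1.22, 4.57 and 6.28, and 2.44 and 1.54 CPM (log2 difference 1.42, SE 0.23), and there PGE2 also lay above vehicle without overlap (log2 0.57, SE 0.32). Another lay in the gap between Akr1e1 and the zinc finger factor gene Klf6 (chromosome 13, 4707333 to 4707629; log2 difference 1.36, SE 0.29), where PGE2 lay above vehicle too (log2 0.78, SE 0.41). In the other direction, by the same conditions, the largest difference was between 4930583I09Rik and Tmem232 (chromosome 17, 65040904 to 65041432), at 3.29 and 2.98 CPM with vehicle, 0.563 and 1.14 under AA and 1.76 and 2.39 under PGE2. It fell with AA (log2 -1.90, SE 0.33) and AA stood below PGE2 (log2 -1.31, SE 0.36, adjusted p = 0.0138, edgeR), a call lost without AA replicate 1 or PGE2 replicate 2. Between Eef2kmt and the splicing factor gene Rbfox1 (chromosome 16, 5515974 to 5516346) a peak had 3.22 and 2.75, 0.844 and 0.734, and 2.14 and 1.70 CPM in the same order, with log2 -1.90 against vehicle and -1.26 against PGE2. The latter call was lost without either AA library or PGE2 replicate 1. At both peaks PGE2 lay below vehicle without overlap and was not called (log2 -0.59 and -0.63, SE 0.27 at each). A peak inside the lncRNA gene Gm31340 next to the glutamate transporter gene Slc1a3 (chromosome 15, 8797186 to 8797558) was lower with AA than with PGE2 (log2 -1.23, SE 0.29, adjusted p = 0.00369, edgeR). It had 1.84 and 2.67 CPM with vehicle, 1.83 and 0.897 under AA and 3.51 and 3.09 under PGE2, passed in neither treatment against vehicle, and lost its call without AA replicate 2.

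Far peaks are shared by the gap they stand in, so the gaps were looked at as units. Of the 292 gaps with at least 10 tested far peaks, 218 held calls in both directions with AA and 177 with PGE2. With AA 134 had more higher than lower calls and 139 the reverse, and with PGE2 107 and 153. At least 50% of the tested peaks were higher in 10 gaps and lower in 19 with AA, and in 2 and 14 with PGE2. The 5 gaps with the most far peaks were mixed: between Klf5 and Klf12 17 of 57 peaks rose and 10 fell with AA, and 10 and 10 with PGE2, and between Zeb2 and Acvr2a 6 of 52 were higher and 13 lower with AA, and 3 and 14 with PGE2.

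Some gaps moved almost as a whole. These were picked after their values were seen, so they are described without a test. Between Cdh26 and 4930591A17Rik 19 of 25 tested peaks were lower and 0 higher with AA, and 17 and 0 with PGE2. Their summed level was 169 and 165 CPM with vehicle, 85.9 and 85.4 under AA and 94.0 and 97.5 under PGE2. Between Auts2 and Castor2 13 of 18 peaks were lower with AA and 12 with PGE2, with 0 higher, and the sum went from 171 and 167 CPM to 109 and 107 and to 104 and 107. Between Gm33989 and Vstm2b 10 of 12 were lower with AA and 7 with PGE2, with 0 higher.

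In other gaps, also picked after their values were seen, gains prevailed. Between Ahr, the gene of the aryl hydrocarbon receptor that senses dietary and microbial ligands, and Agr3 9 of 12 peaks were higher with AA and 9 with PGE2, with 0 lower. The sum was 34.2 and 36.6 CPM with vehicle, 49 and 52.9 under AA and 49.1 and 50.7 under PGE2. Between Tmx1 and Frmd6 8 of 11 were higher with each treatment and 0 lower, and the sum went from 26.3 and 30.1 CPM to 50.6 and 56.2 and to 47.7 and 50.1. Between 1700015G11Rik and Luzp2 10 of 11 were higher with AA and 5 with PGE2.

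**Figure D4:**
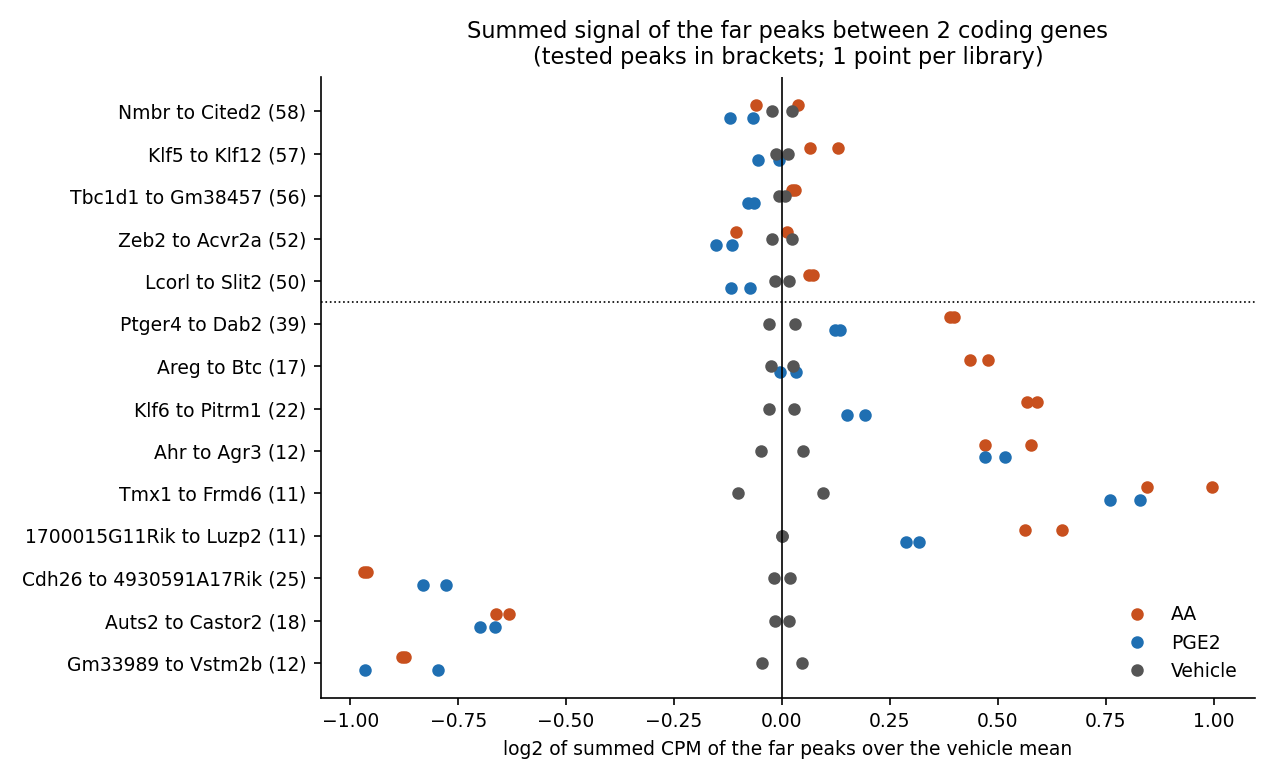
Summed CPM of the tested far peaks of 14 gaps in each library, as log2 of the ratio to the vehicle mean (x axis); gaps are named by their flanking coding genes, with the number of tested peaks in brackets. Above the dotted line are the 5 gaps with the most far peaks outside chromosome 18, below it gaps picked after their values were seen. AA and PGE2 points lie together, left of vehicle, for Cdh26 to 4930591A17Rik (85.9 and 94.0 CPM in the first libraries), and apart for Areg to Btc.

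The far peaks were next sorted by the genes that flank their gaps, in 10 lists of gut and signalling genes. With AA the lists with the highest percentage of higher peaks were those of fetal and regenerative genes (19 of 46 tested peaks higher, 41.3%, and 4 lower, 8.70%), of AP-1 and immediate early genes (67 of 190, 35.3%, and 33 lower, 17.4%) and of eicosanoid and fatty acid genes (26 of 89, 29.2%, and 6 lower, 6.74%). Their median log2 changes were 0.26, 0.15 and 0.17, against -0.09 over all far peaks, of which 18.4% were higher and 21.4% lower. With PGE2 the counts were 11 higher and 6 lower (23.9% and 13.0%), 40 and 29 (21.1% and 15.3%), and 12 and 5 (13.5% and 5.62%), against 11.2% and 17% of all far peaks. Between AA and PGE2 14 of the 46, 35 of the 190 and 9 of the 89 were higher with AA (30.4%, 18.4% and 10.1%). Lower were 0, 2 and 1 of them. Of all far peaks 6.43% were higher with AA in this contrast and 2.35% lower.

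A few gaps held most of these gains. Without the gap between Areg and Btc the fetal list had 8 of 29 peaks higher and 3 lower with AA, and 2 of 29 higher in AA than in PGE2. Without the gap between Ptger4 and Dab2 the eicosanoid list had 10 of 50 higher and 6 lower with AA, and 0 of 50 called between AA and PGE2. Without the gap between Akr1e1 and Klf6 the AP-1 list had 49 of 158 higher (31.0%) and 30 lower with AA. Between AA and PGE2 25 of these 158 (15.8%) were higher with AA and 2 lower. These 158 still included the second gap beside Klf6, toward Pitrm1 (12 of 22 higher and 1 lower with AA). They also included the gap between Saraf and Dusp4 (17 of 38 higher and 3 lower). Between Jun and Fggy 6 of 30 were higher and 14 lower. The gains of this list therefore also stood mainly in a few gaps, beside Klf6 and Dusp4.

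**Figure D5:**
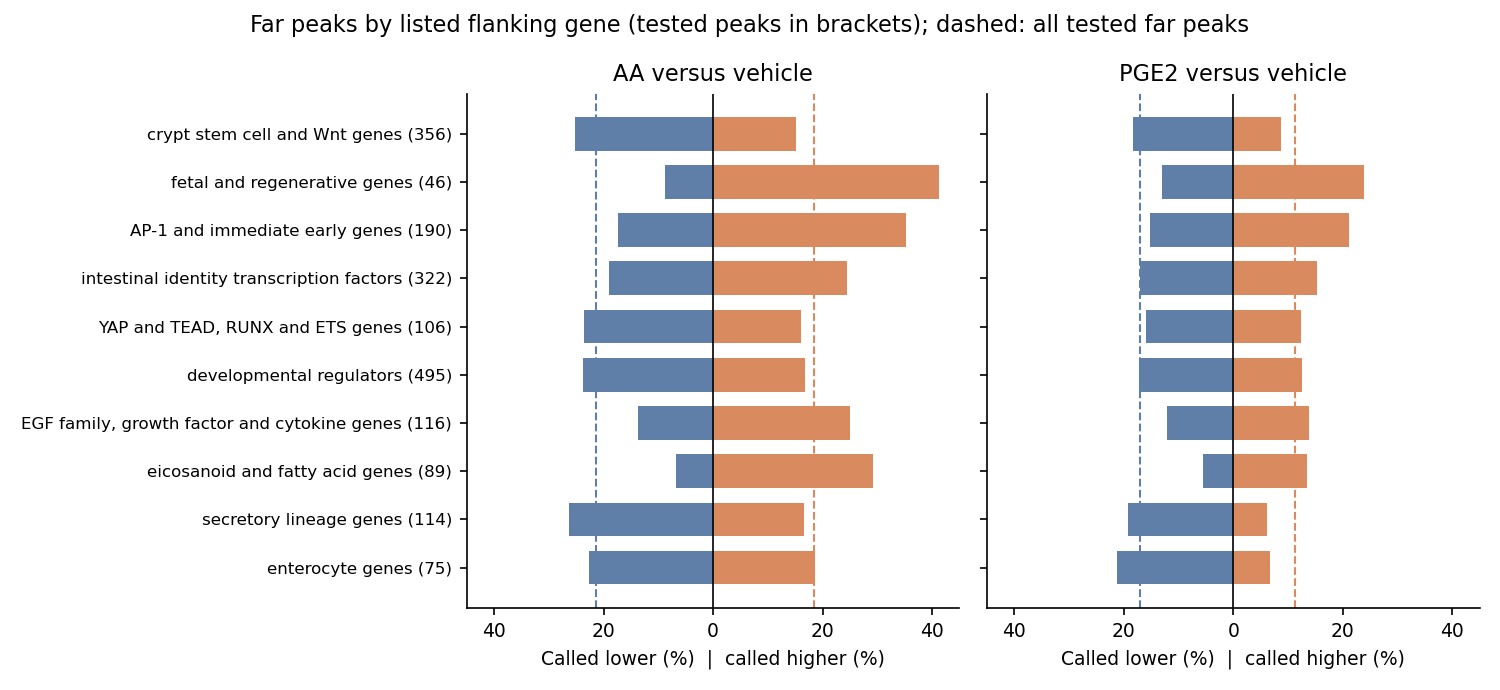
Percentage of tested far peaks called lower (left) and higher (right, x axis) for 10 lists of flanking genes (y axis, tested peaks in brackets), for AA and PGE2 against vehicle. Dashed lines give all tested far peaks. With AA the fetal and regenerative, AP-1 and eicosanoid lists reach farthest to the right (41.3%, 35.3% and 29.2% higher).

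Areg and Btc encode amphiregulin and betacellulin, ligands of the EGF receptor, and their gap separated the treatments. Of 17 tested peaks there, 11 rose and 1 fell under AA, 4 rose and 2 fell under PGE2, and 12 stood higher in AA than in PGE2. The summed level was 230 and 239 CPM with vehicle, 317 and 326 under AA and 234 and 240 under PGE2, so AA stood apart and PGE2 lay within the vehicle range or just above it. The peak at chromosome 5, 91241703 to 91242419, 93.6 kb from Areg, had 11.9 and 14 CPM with vehicle, 26.0 and 30.6 under AA and 20.7 and 20.4 under PGE2 (2.18-fold and 1.58-fold). AA exceeded PGE2 there by 0.46 (SE 0.096, adjusted p = 0.00118, edgeR), a call lost with DESeq2 and without AA replicate 2. Its neighbours at 91220124 to 91220764 and 91206311 to 91207360 had log2 changes of 1.30 and 0.65 under AA and 0.73 and 0.28 under PGE2.

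Ptger4 encodes EP4, a receptor of PGE2, and Dab2 an endocytic adaptor. In their gap of 1056 kb 16 of 39 tested peaks were higher with AA and 8 with PGE2, with 0 lower in either. Summed, they had 192 and 200 CPM with vehicle, 256 and 258 under AA and 215 and 213 under PGE2, in that order without overlap. A peak inside the lncRNA gene 5430437J10Rik, 293 kb from Ptger4 (chromosome 15, 5537213 to 5537898), went from 6.20 and 8.01 CPM to 20.0 and 20.0 under AA and 11.6 and 12.3 under PGE2 (log2 1.49, SE 0.12, and 0.75, SE 0.13). Its neighbour at 5539427 to 5539899 had log2 changes of 1.47 and 0.94. Another named peak of the list fell. Between Brinp3 and Pla2g4a, which encodes the phospholipase that frees AA from membranes (chromosome 1, 147343499 to 147344098), a peak had 8.27 and 6.94 CPM with vehicle, 1.83 and 2.28 under AA and 3.13 and 2.78 under PGE2.

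Among flanking genes of the AP-1 and immediate early list, Dusp4, the gene of a MAP kinase phosphatase, and Klf6 stood beside the most gains. Between Saraf and Dusp4 17 of 38 peaks were higher and 3 lower with AA, and 14 and 2 with PGE2. A peak inside the lncRNA gene Gm33968 there (chromosome 8, 34523715 to 34524394) went from 5.05 and 5.49 CPM to 18.1 and 18.8 under AA and 13.4 and 13.0 under PGE2 (log2 1.80, SE 0.13, and 1.33, SE 0.14). Another (chromosome 8, 34287746 to 34288469) had log2 changes of 2.12 and 1.29, with AA above PGE2 by 0.83 (SE 0.14). Between Klf6 and Pitrm1 12 of 22 peaks were higher and 1 lower with AA, and 10 and 2 with PGE2, and the sum was 182 and 189 CPM with vehicle, 275 and 280 under AA and 206 and 212 under PGE2. Not every gap of the list went this way: between Jun, the gene of an AP-1 subunit, and Fggy 6 of 30 peaks were higher and 14 lower with AA, and 2 and 10 with PGE2.

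Far peaks around crypt stem cell and Wnt genes were lower more often than higher, at percentages near those of all far peaks. With AA 54 of 356 tested peaks (15.2%) were higher and 90 (25.3%) lower, against 18.4% and 21.4% of all far peaks. With PGE2 31 (8.71%) were higher and 65 (18.3%) lower, against 11.2% and 17%. Between Rgmb, which encodes a co-receptor of BMP signalling, and Gm51425 14 of 30 were lower and 5 higher with AA, and 11 and 0 with PGE2. The strongest peak there by p (chromosome 17, 16004926 to 16005580) had 39.9 and 43.0 CPM with vehicle, 22.3 and 26.0 under AA and 33.2 and 31.9 under PGE2. AA was lowest without overlap, 0.44 below PGE2 on the log2 scale (log2 difference -0.44, SE 0.085). That difference lost its call with DESeq2 and without AA replicate 1. The call of PGE2 against vehicle there was lost with DESeq2 and without Vehicle replicate 2. The peak at 15938810 to 15939515 had 43.1 and 42.2, 23.9 and 27.2, and 36.8 and 36.4 CPM. Its PGE2 call was lost with DESeq2, with scaling from far peaks alone and at adjusted p under 0.01. It was also lost without PGE2 replicate 2, Vehicle replicate 1 or Vehicle replicate 2.

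Gaps of this list differed from each other. Beside Lef1, a transcription factor gene of the Wnt pathway, 11 of 23 peaks were lower with AA and 8 with PGE2, with 0 higher. Beside Axin2, a feedback inhibitor of that pathway, 8 of 17 were lower with AA and 1 with PGE2. Between Olfm4, a stem cell marker, and Pcdh17 4 of 8 were lower with AA and 2 with PGE2. The gaps on both sides of Myc leaned the other way with AA: 11 higher and 5 lower of 42 toward A1bg, and 11 and 7 of 47 toward Gsdmc. In the latter a peak 579 kb from Myc (chromosome 15, 62568835 to 62569779) had 1.23 and 2.37 CPM with vehicle, 7.46 and 7.42 under AA and 2.82 and 3.47 under PGE2 (log2 2.05, SE 0.22, with AA). Its call with PGE2 (log2 0.80, SE 0.27, adjusted p = 0.0209, edgeR) was lost with DESeq2 and without Vehicle replicate 1 or PGE2 replicate 2.

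The intestinal identity transcription factors had 79 of 322 flanking far peaks higher (24.5%) and 61 lower (18.9%) with AA, against 18.4% and 21.4% of all far peaks. With PGE2 49 (15.2%) were higher and 55 (17.1%) lower, against 11.2% and 17%. Beside Klf4, toward Actl7b, 16 of 33 were higher and 2 lower with AA, and 11 and 3 with PGE2. Beside Maf, toward Dynlrb2, 3 of 40 were higher and 14 lower with AA, and 3 and 15 with PGE2. A peak inside the lncRNA gene Gm32513 near Cebpb, a leucine zipper factor gene of epithelial stress responses (chromosome 2, 167789302 to 167790418), went from 8.73 and 8.54 CPM to 26.9 and 24.5 under AA and 19.6 and 20.8 under PGE2 (log2 1.57 and 1.22). A peak 558 kb from Isx, an intestine-specific homeobox gene, fell from 16.8 and 15.9 CPM to 6.61 and 7.26 under AA and 5.34 and 4.78 under PGE2 (chromosome 8, 74314999 to 74315897). Near Klf5, a factor of proliferating crypt cells, the peak at chromosome 14, 99403107 to 99403673, had 4.67 and 5.65, 13.5 and 14.4, and 9.08 and 9.72 CPM.

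Around YAP and TEAD, RUNX and ETS genes 17 of 106 were higher (16%) and 25 lower (23.6%) with AA, against the 18.4% and 21.4% of all far peaks. With PGE2 13 (12.3%) were higher and 17 (16%) lower, against 11.2% and 17%. The gap between Runx1 and Setd4 held 11 higher and 8 lower of 41 with AA, and 8 and 3 with PGE2. Its peak at chromosome 16, 93446065 to 93446860, had 7.20 and 7.40 CPM with vehicle, 15.5 and 16.3 under AA and 12.4 and 12.1 under PGE2. Around the genes of the EGF family, growth factors and cytokines 29 of 116 were higher (25%) and 16 lower (13.8%) with AA, and without the gap between Areg and Btc 18 and 15 of 99 (18.2% and 15.2%). With PGE2 16 of the 116 were higher and 14 lower. Beside Tgfbr2, a TGF-beta receptor gene, 6 of 21 were higher with AA and 4 with PGE2, with 0 lower. A peak 176 kb from Ets1 fell from 27.9 and 28.7 CPM to 17.9 and 15.9 under AA and 22.2 and 20.8 under PGE2 (chromosome 9, 32932975 to 32934101; log2 -0.74 and -0.40).

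Around developmental regulators 83 of 495 were higher (16.8%) and 118 lower (23.8%) with AA, against the 18.4% and 21.4% of all far peaks. With PGE2 62 (12.5%) were higher and 85 (17.2%) lower, against 11.2% and 17%. In the gap between Msr1 and Fgf20 a peak fell from 12.5 and 11.4 CPM to 4.79 and 4.73 under AA and 3.59 and 3.32 under PGE2 (chromosome 8, 40019215 to 40019957). Between Shh, the gene of the Sonic hedgehog ligand, and Rnf32 a peak rose from 5.36 and 4.58 CPM to 13.9 and 14.3 under AA and 11.5 and 10.7 under PGE2 (chromosome 5, 29083124 to 29083656). Between Sox5 and Bcat1 a peak inside the lncRNA gene Gm46721 fell by 1.26 and 1.44 on the log2 scale (chromosome 6, 144940560 to 144941368).

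Secretory lineage genes had 19 of 114 flanking far peaks higher (16.7%) and 30 lower (26.3%) with AA, against 18.4% and 21.4% of all far peaks. With PGE2 7 (6.14%) were higher and 22 (19.3%) lower, against 11.2% and 17%. Near Dll1, which encodes the Notch ligand of secretory progenitors, a peak had 13.1 and 13.7 CPM with vehicle, 6.76 and 6.20 under AA and 12.1 and 10.4 under PGE2 (chromosome 17, 15308376 to 15309188). It fell with AA (log2 -1.04, SE 0.13) and was not called with PGE2 (log2 -0.25, SE 0.12), and the difference was -0.80 (SE 0.14, adjusted p = 1.27e-04, edgeR). Between Isl1 and Parp8 a peak had 4.67 and 5.95, 12.3 and 14.1, and 5.57 and 8.10 CPM in the same order (chromosome 13, 116788256 to 116788892). It rose with AA (log2 1.31, SE 0.15) and was not called with PGE2 (log2 0.36, SE 0.18), and AA exceeded PGE2 by 0.95 (SE 0.14). Between Neurod1, an endocrine transcription factor gene, and Itprid2 a peak rose from 1.23 and 2.98 CPM to 8.66 and 10 under AA and 7.63 and 8.26 under PGE2 (chromosome 2, 79532491 to 79533139).

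Enterocyte genes had 14 of 75 flanking far peaks higher (18.7%) and 17 lower (22.7%) with AA, against the 18.4% and 21.4% of all far peaks. With PGE2 5 (6.67%) were higher and 16 (21.3%) lower, against 11.2% and 17%. In the gap between Klhl29 and Apob, which encodes the scaffold of chylomicrons, a peak fell from 12.6 and 12.7 CPM to 3.38 and 3.26 under AA and 4.58 and 3.32 under PGE2 (chromosome 12, 5771226 to 5771912). In the gap of 3512 kb between Slc10a2, the ileal bile acid transporter gene, and Efnb2, 9 of 42 were lower and 7 higher with AA, and 10 and 1 with PGE2. Its peaks went both ways: the one 947 kb from Slc10a2 fell (chromosome 8, 6051709 to 6052786, log2 -1.19 and -1) and the one 1676 kb away rose (chromosome 8, 6781057 to 6781500, log2 1.62 with AA).

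Of the 146 far peaks that hold a whole promoter window, 30 were higher (20.5%) and 36 lower (24.7%) with AA, against 18.4% and 21.4% of all far peaks. With PGE2 21 (14.4%) were higher and 27 (18.5%) lower, against 11.2% and 17%. Between AA and PGE2 14 (9.59%) were higher with AA and 5 (3.42%) lower, against 6.43% and 2.35%. The peak of Wincr1, a lncRNA gene named for its induction by Wnt, in the gap between Ifne and Mtap (chromosome 4, 89049781 to 89050402), had 3.52 and 2.44 CPM with vehicle, 10.8 and 11.1 under AA and 6.56 and 8.56 under PGE2 (log2 1.87, SE 0.17, and 1.34, SE 0.19). The peak of Gm41331 (chromosome 15, 60141580 to 60142138) had 2.07 and 1.53, 4.43 and 6.28, and 3.20 and 3.47 CPM. In both, AA and PGE2 lay above vehicle.

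Falling with AA were the peaks of Gm40228 (chromosome 4, 114346141 to 114346893), from 5.51 and 5.49 CPM to 2.74 and 2.28 under AA and 3.36 and 2.85 under PGE2, and of Gm36443 near Lef1 (chromosome 3, 130803775 to 130804309), from 5.97 and 5.87 to 2.67 and 2.94 and to 4.20 and 4.24. The call of the latter with PGE2 (log2 -0.49, SE 0.18, adjusted p = 0.0356, edgeR) was lost in each fit that left out a vehicle or PGE2 library. The peak of Dleu2, a lncRNA gene that hosts microRNAs lost in leukaemia (chromosome 14, 61680747 to 61683360), was highest with PGE2. With AA it lay above vehicle without overlap and was not called. It had 55.7 and 52.3 CPM with vehicle, 56.6 and 61.8 under AA and 73.0 and 83.7 under PGE2 (log2 0.54, SE 0.065, with PGE2), and AA was 0.41 below PGE2 (log2 difference -0.41, SE 0.064, adjusted p = 5.25e-05, edgeR). The most open peak of this kind, at 8430430B14Rik (chromosome 17, 83997935 to 84000518), had 146 and 147 CPM with vehicle, 128 and 124 under AA and 130 and 134 under PGE2, small falls of 0.22 and 0.15 on the log2 scale. Both calls were lost with DESeq2, and the PGE2 call also with scaling from far peaks alone and without Vehicle replicate 1, Vehicle replicate 2 or PGE2 replicate 1.

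The letters of the AP-1 motif (TGACTCA or TGAGTCA, on both strands; the pair are each other's reverse complement) stood in 19 of the 160 windows in far peaks (11.9%), against 5.26% of all 31363 autosomal promoter windows of the same length and 6.25% of the 11309 lncRNA windows. RUNX letters (TGTGGTT) stood in as many windows in far peaks, 19 of 160, against 5.32% of all windows. GATA letters (AGATAA) stood in 28 of 160 (17.5%), against 11.2%. The windows in far peaks all lie in open chromatin, whereas the other windows were taken whether open here or not. Distance from genes and openness therefore cannot be told apart in these percentages. The AP-1 letters stood in 10 of 32 windows in peaks higher with AA (31.3%) and 0 of 38 in peaks lower with AA, and in 9 of 25 (36.0%) and 0 of 28 with PGE2. Several windows can share a peak, and this split was looked at after the values were seen and was not tested. Among the 3 printed windows with these letters, Gm30438 held 2 matches and Gm33323 and Gm39608 1 each. The peak of Gm30438 (chromosome 14, 67158722 to 67159434) rose from 15.9 and 15.6 CPM to 24.9 and 28.5 under AA and 21.7 and 21.0 under PGE2. That of Gm33323, between Wdr11 and Fgfr2 (chromosome 7, 129763871 to 129765157), went from 41.0 and 38.9 to 52.1 and 53.6 and to 50.4 and 51.9, and that of Gm39608 (chromosome 11, 20898308 to 20899061) from 4.82 and 5.80 to 9.92 and 9.38 and to 9.23 and 8.49.

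RUNX letters stood in 6 of the 32 windows higher and 2 of the 38 lower with AA. CDX letters (TTTATGG) stood in 0 of the 32 and 4 of the 38 (2.77% of all windows). GATA letters stood in 6 of the 32 and 8 of the 38. The remaining motifs searched, CRE (TGACGTCA), TEAD (ACATTCC), TCF (CTTTGAT), HNF4 (CAAAGTCCA), KLF (GGGCGTG), ETS (CCGGAAGT) and CTCF, each stood in at most 10 of the 160 windows. The CRE letters do not contain the AP-1 letters. A match describes letters and not binding, and a window is only the part of the peak around the start of the lncRNA.

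The far peak that holds Mir802 (chromosome 16, 93369638 to 93370019) was open in all libraries, at 15.2 and 16.6 CPM with vehicle, 12.5 and 13.1 under AA and 13.5 and 11.7 under PGE2. Vehicle was above both treatments without overlap. The falls were small, by 0.32 (SE 0.11, adjusted p = 0.0282, edgeR) and 0.34 (SE 0.11, adjusted p = 0.0231, edgeR) on the log2 scale. Both calls were lost with DESeq2, with scaling from far peaks alone and at adjusted p under 0.01. The AA call was also lost without AA replicate 1, AA replicate 2, Vehicle replicate 1 or Vehicle replicate 2. The PGE2 call was also lost without PGE2 replicate 2 or Vehicle replicate 2.

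The far peaks of the highest level that were called in no contrast stood in 3 gaps. One lay inside the lncRNA gene Gm31718 between Irf2bp2 and Tomm20 (chromosome 8, 126826072 to 126827278), at 92.0 and 97.0 CPM with vehicle, 95.5 and 94.3 under AA and 92.3 and 90.3 under PGE2, where both treatments overlapped vehicle. One lay between the cyclin gene Ccnd2 and Parp11 (chromosome 6, 127335245 to 127336284), at 88.7 and 88.1, 89.2 and 83.0, and 86.2 and 84.7 CPM, where PGE2 lay just under vehicle. The other lay between Phlda1 and Krr1 (chromosome 10, 111575728 to 111576879), at 81.7 and 86.4, 84.0 and 93.2, and 80.8 and 82.8 CPM. Their log2 changes lay between -0.05 and 0.07 against vehicle. Per kb of width, the densest far peaks in vehicle included 3 where reads may not belong to a single place. The one at chromosome 17, 39846708 to 39847402, overlaps Rn18s-rs5, a ribosomal RNA pseudogene, and had 204 and 221 CPM with vehicle, 142 and 138 under AA and 182 and 173 under PGE2. The others, at chromosome 3, 5860340 to 5860598 (log2 -0.71 with AA), and at the start of the assembled chromosome 9, 3023425 to 3024660 (log2 -0.35 with AA), have no gene in the table. All 3 were lower with AA than with PGE2 and vehicle, and how the authors placed reads of repeated sequence is not given in the sources used here.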

How the data were processed

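The authors deposited 1 table of read counts per consensus peak for 6 ATAC-seq libraries, made with featureCounts 1.6.3 per the file header. The submitters' processing notes name Trim Galore, BWA, Picard, SAMtools and MACS2 and the build mm10, with no versions; how duplicate and multiply placed reads were treated is not given in the sources used here. Peak positions were compared with coding genes of RefSeq GRCm38.p6, and the gap of each far peak with 10 lists of flanking genes. The members and the lists were chosen with earlier results of these data known.

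All 90823 peaks entered 1 edgeR 4.0.16 quasi-likelihood fit (R 4.3.3, limma 3.58.1) with TMM factors (0.969 to 1.02), filterByExpr, robust dispersion and a term for group. The 3 comparisons were adjusted by Benjamini-Hochberg over 89347 tested peaks, with a threshold of 0.05. Values per library are CPM from the deposited counts. The fit was tested on simulated data for AA against vehicle: of 200 peaks changed 2-fold among 89136, 67.2% were recovered with 8 false calls. The simulation used 1 dispersion for all peaks and as many gains as losses. In the data 30.5% of tested peaks were called with AA, so it does not show the error rate under changes that widespread. Shares of counts were compared by exact permutation (scipy 1.17.1).

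Named peaks followed a rule: per treatment, the 5 called peaks that moved farthest each way, with average log2 CPM of at least 1 and no overlap between groups, 1 per gap, and the 3 smallest p in each direction. For AA against PGE2 it took the 3 largest in each direction. It added the 6 densest in vehicle, the largest peak of the 5 gaps with most far peaks, the 3 farthest, those called in opposite directions, the 3 highest called nowhere, and 3 per list. Chromosome 18 was counted but not named, so the rankings of named peaks and gaps leave it out. Windows and microRNAs came from RefSeq tables; the AP-1 windows were chosen after values were seen. Alternatives were other scalings, DESeq2 1.42.0, no filter, the compared groups alone, leaving out each library, a replicate block, distances of 20 and 100 kb, genes of every type and a threshold of 0.01.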

Additional observations from a re-analysis of the deposited data

How the results depend on the processing

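No called log2 change of a named peak and no difference in the share of counts changed sign under the alternatives run. Among changes that were not called, 44 recomputed values of 28 changes had the other sign, all from changes of at most 0.33 in size on the log2 scale. DESeq2 called fewer far peaks: 856 higher and 657 lower with AA, 362 and 481 with PGE2, and 34 and 9 between AA and PGE2. So with DESeq2 the larger side for AA was the higher one. DESeq2 gave an adjusted p for 9487, 7061 and 3046 far peaks in the 3 comparisons. With AA 9.02% of these were higher and 6.93% lower, against 6.92% and 3.38% of all peaks. With PGE2 5.13% were higher and 6.81% lower, against 7.58% and 2.98%. Between AA and PGE2 1.12% were higher and 0.295% lower, against 0.632% and 0.974%. At adjusted p under 0.01, PGE2 kept 689 higher and 1097 lower, and AA against PGE2 274 and 76. For PGE2 this was 7.06% and 11.2% of far peaks, against 9.62% and 6.12% of all tested peaks. For AA against PGE2 it was 2.81% and 0.779%, against 2.22% and 2.24%. Fewer or more peaks qualify at other distances: beyond 20 kb 3250 and 3224 with AA, 2022 and 2531 with PGE2, and 1109 and 394 between them; beyond 100 kb 990 and 1322, 615 and 1065, and 354 and 134; and far from genes of every type 375 and 500, 213 and 387, and 141 and 63. Leaving out 1 library at a time gave 1286 to 1891 higher and 1376 to 2236 lower with AA, 637 to 1053 and 1049 to 1643 with PGE2, and 231 to 612 and 65 to 233 between them; a lone library is then assumed to vary like the other groups. The share of counts in far peaks differed by -0.411 to -0.329 points for AA, -0.796 to -0.662 for PGE2 and 0.291 to 0.426 between them. The cause of these shifts was not tested.

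The groups share replicate numbers, but deviations of same-numbered libraries correlated by only 0.0043, -0.025 and 0.042 over all tested peaks, so the numbers were not taken to pair the libraries. With the replicate block the counts were 1796 and 2096 for AA, 1108 and 1672 for PGE2 and 640 and 234 between them. Over the 81 named peaks, 3193 of the recomputed values stayed on their side of the threshold, 155 lost a call and 15 gained one. A median far peak held 43 to 49 counts per library, which limits small changes at weak peaks.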
